A study of Mus musculus with 2 samples.

Results

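The desmosome and intercalated disc genes are 10 genes of the junctions that hold heart muscle cells together end to end: Dsp, Jup, Pkp2, Pkp4, Dsg2, Dsc2, Cdh2, Ctnna1, Ctnna3 and Ctnnb1. They were chosen by name, as every probe whose platform gene symbol is on that list. This gave 29 of 41174 probes and 10 of 19532 genes. RNA of mouse heart, numbered heart-1 and heart-2 and taken without culture or treatment, was set against RNA of MEF, mouse embryonic fibroblasts, which are connective-tissue cells grown in serum-containing medium. Each of 2 Agilent arrays held a heart RNA labelled with Cy3 and MEF RNA labelled with Cy5, so a bias of a probe for either dye stays in its ratio. The labels name no strain, age or number of animals, and do not say whether the MEF RNA was a single preparation. The p-values therefore cover only how far these arrays differed, and that spread could be technical.

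The value of a probe is taken to be a log2 ratio, with the base inferred from the values, and is read here as heart over MEF. This direction is likely rather than stated, and rests on 9 of 9 cardiac muscle marker genes being positive on both arrays, with a median log2 ratio of 6.70 on heart-1 and 7.00 on heart-2. Of the other marker lists, 7 of 7 endothelial genes were higher in heart (median 4.17) and 8 of 8 fibroblast genes were lower (median -5.00). The smooth muscle list was mixed, with 1 of 4 genes higher (Myh11 at 1.61) and 3 lower, as was the leukocyte list, of whose 3 measured genes S100a8 was at 9.38, Lyz2 at -2.32 and Ptprc, which did not pass, at 0.40. A heart holds muscle, vessel, connective tissue, nerve and blood cells, and in such a mixture fewer cells of a type and less RNA per cell cannot be told apart. Channel intensities were not used here, so levels cannot be compared between genes. Whether a channel was near background is also unknown. The size of a large ratio, and the order of genes by ratio, carry that limit.

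Desmosomes are spot-like junctions in which the cadherins desmoglein and desmocollin reach across the gap between cells, the armadillo proteins plakoglobin and plakophilin bind their tails inside the cell, and desmoplakin ties this plaque to intermediate filaments, which in heart are made of desmin. Adherens junctions have the same plan with N-cadherin outside and beta-catenin and alpha-catenin inside, and they tie to actin. In the intercalated disc of the heart the components of both junctions mix in a composite junction. In humans, inherited changes in the desmosomal genes of the heart are a known cause of arrhythmogenic cardiomyopathy.

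Of the 10 genes, 9 were higher in heart, 0 were lower and 1 did not pass the test (limma, Benjamini-Hochberg adjusted p under 0.05 over all 19532 genes). Across all genes the same test called 73.1%, made up of 33.8% higher and 39.3% lower. At least 2-fold higher on both arrays were 8 of the 10, against 18.1% of all genes, and at least 4-fold higher on both were 7, against 8.99%. The median log2 ratio of the 10 genes was 2.61 on heart-1 and 2.51 on heart-2, and the median over all genes was -0.03 and -0.13. A test without the variance shared across genes, which has 1 degree of freedom, called 5 of the 10 and missed Dsp, Jup, Dsg2 and Ctnna3 (adjusted p from 0.0517 to 0.0931). The share of all genes that this test called was not counted, so its 5 cannot be set beside a background. With all probes averaged, desmoplakin, the desmosomal cadherins and plakophilin-2 stood highest and the cadherin and alpha-catenins of the adherens junction lay below them. That order depended on the probes. Without probes in a band of near-constant values, Ctnna3 (3.76) lay above Pkp2 (3.57), and with probes listed under a RefSeq transcript Ctnna3 (4.23) and Cdh2 (3.64) both did. The closely related armadillo proteins plakoglobin and beta-catenin had the lowest ratios under each of these choices.

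**Figure D1:**
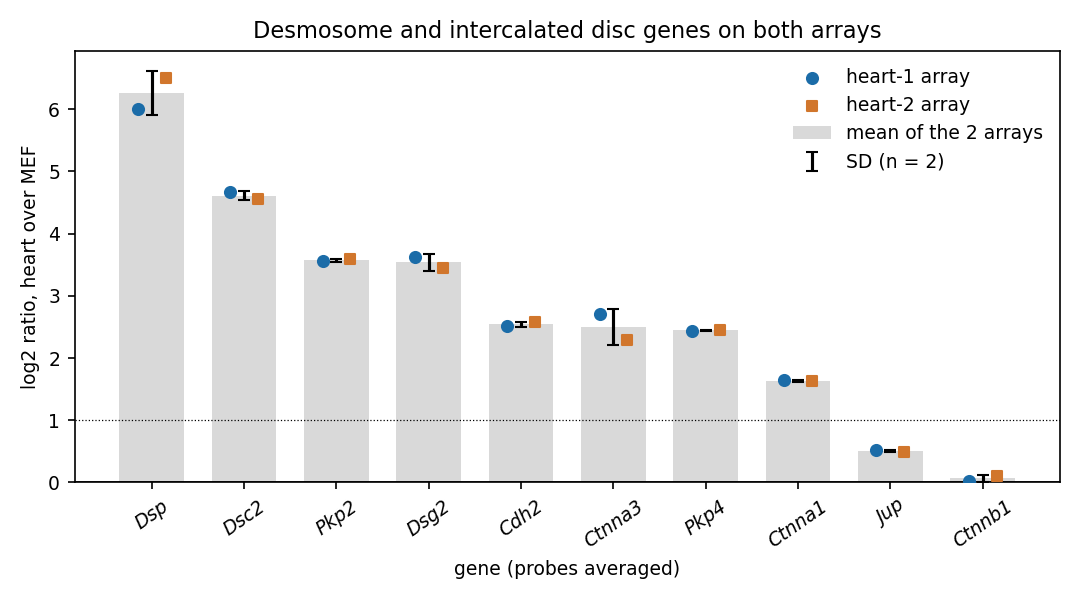
Log2 ratio of heart over MEF for each of the 10 genes, with probes averaged; points are the heart-1 and heart-2 arrays, bars the mean of the 2 arrays and whiskers the SD (n = 2), and the dotted line marks a 2-fold difference. Dsp stands highest at 6.26 and Ctnnb1 lowest at 0.07, and Jup and Ctnnb1 lie under the 2-fold line.

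Dsp encodes desmoplakin, the plaque protein that anchors desmin filaments, and had the highest ratio of the 10. Its log2 ratio was 6.01 on heart-1 and 6.51 on heart-2, a mean of 6.26 ± 0.35 (SD, n = 2; 76.6-fold; limma adjusted p = 0.00183). This was the 100th highest mean among the 19532 genes. All 4 of its probes were higher in heart, with means from 4.99 to 7.65. The hearts differed most on 1 probe, at 5.88 on heart-1 and 7.10 on heart-2, and on another at 5.57 and 6.24, while the remaining probes gave 5.00 and 4.98, and 7.59 and 7.70. The excess of heart-2 over heart-1, 0.50 for the gene, was thus carried by some of its probes, and 8.29% of all genes differed by as much or more between the arrays.

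The desmosomal cadherins were also high. Dsc2, desmocollin-2, had log2 ratios of 4.66 and 4.56, a mean of 4.61 ± 0.07 (SD, n = 2; 24.5-fold; limma adjusted p = 0.00136), and its 3 probes had means of 3.86, 4.99 and 4.99. Dsg2, desmoglein-2, the partner of desmocollin-2 outside the cell, had 3.63 and 3.44, a mean of 3.54 ± 0.13 (SD, n = 2; 11.6-fold; limma adjusted p = 0.00147). The mean of Dsg2 hides the widest disagreement among the members. Its 4 probes listed under a RefSeq transcript had means of 2.57, 4.09, 5.48 and 9.06. Its other 2 probes, listed under other cDNA clones, had means of 0.01 and 0.01. This range of 9.05 put Dsg2 among the 5 widest of the 8511 genes with more than 1 probe, whose median range was 0.95.

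Both of those flat Dsg2 probes lay in a narrow band in which each array held an excess of nearly equal values. The band ran from 0.1 to 0.2 on heart-1 and from -0.22 to -0.1 on heart-2, and 8.69% of all probes were in it on both arrays. The flat Dsg2 probes read 0.17 on heart-1 and -0.15 on heart-2, and 0.16 and -0.15. Among the 29 probes of the 10 genes only these and 1 Ctnna3 probe were in the band, and 0 of the 20 RefSeq transcript probes were. Whether such probes had signal in either channel could not be judged. Averaged over the probes outside the band, Dsg2 stood at 5.30 ± 0.09 (39.4-fold; limma adjusted p = 0.00127), which would place it above Dsc2.

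**Figure D2:**
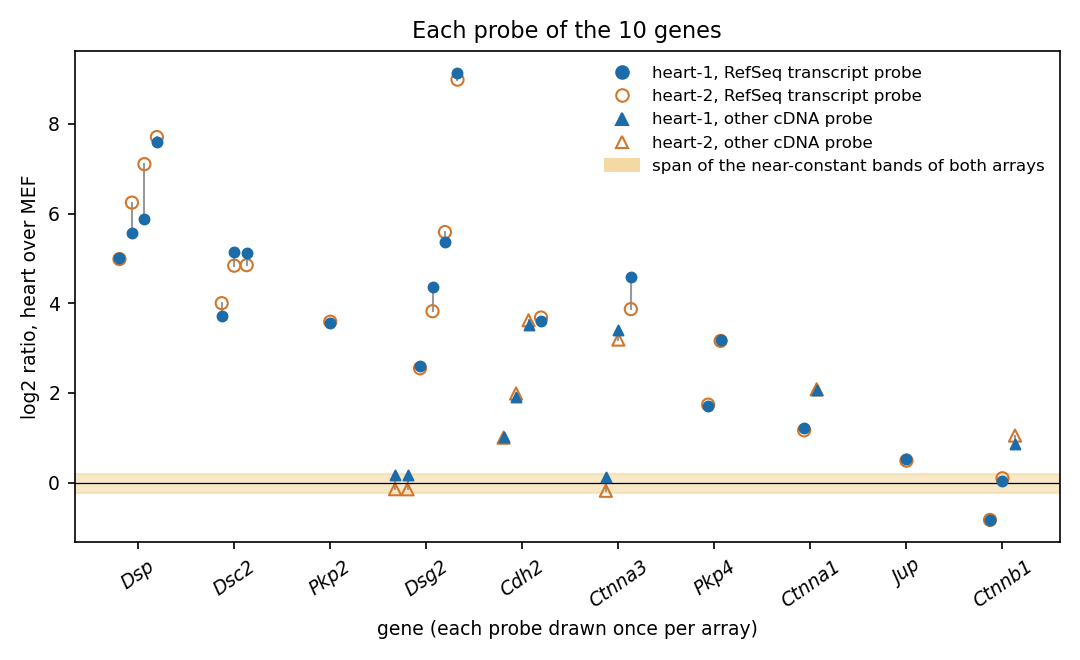
Log2 ratio of heart over MEF for each of the 29 probes, grouped by gene; filled points are heart-1, open points heart-2, circles RefSeq transcript probes and triangles probes of other cDNA clones, and the shaded strip spans the near-constant bands of both arrays. The 3 probes inside the band of each array belong to Dsg2 and Ctnna3. A Ctnnb1 probe, at 0.04 and 0.10, also falls in the strip but not in the band of either array. The 4 RefSeq transcript probes of Dsg2 reach from 2.57 to 9.06.

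The armadillo proteins of the desmosome plaque differed from each other. Pkp2, plakophilin-2, the plakophilin of heart muscle, had a single probe with log2 ratios of 3.55 and 3.59, a mean of 3.57 ± 0.02 (SD, n = 2; 11.9-fold; limma adjusted p = 0.00136). Jup, plakoglobin, which binds the tails of desmosomal cadherins and of N-cadherin, also had a single probe, with 0.52 and 0.49, a mean of 0.51 ± 0.02 (SD, n = 2; 1.42-fold; limma adjusted p = 0.00648). Jup was thus called higher in heart but by less than 2-fold, and 28.7% of all genes had a higher mean. The log2 ratio of Pkp2 exceeded that of Jup by 3.03 on heart-1 and 3.10 on heart-2. A value as small as that of Jup depends on where the zero of the ratio lies, which is not stated, and a single probe leaves it without a second measurement on the same transcript. Tested against a 2-fold difference, Jup did not pass (limma's treat, adjusted p = 1.00), whereas 8 other members did, against 15.1% of all genes.

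Cdh2 encodes N-cadherin, the classical cadherin of heart muscle and also of many fibroblasts. It had log2 ratios of 2.51 and 2.57, a mean of 2.54 ± 0.05 (SD, n = 2; 5.82-fold; limma adjusted p = 0.00137). All 4 probes were higher in heart. The RefSeq transcript probe read 3.60 and 3.68 and a cDNA clone probe 3.52 and 3.62, while 2 further clone probes read 1.91 and 1.99, and 1.01 and 1.00. With the RefSeq transcript probe alone the mean would be 3.64 ± 0.06 (12.5-fold), so the size depends on the probe and the direction does not.

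The alpha-catenins link the cadherin complex to actin. Ctnna1, alpha-E-catenin, the form found in most tissues, had log2 ratios of 1.65 and 1.62, a mean of 1.63 ± 0.02 (SD, n = 2; 3.11-fold; limma adjusted p = 0.00154), with probe means of 1.20 and 2.07. Ctnna3, alpha-T-catenin, a form largely restricted to heart and testis that also binds plakophilin-2, had 2.71 and 2.29, a mean of 2.50 ± 0.29 (SD, n = 2; 5.66-fold; limma adjusted p = 0.00458). Ctnna3 exceeded Ctnna1 by 1.06 on heart-1 and 0.67 on heart-2. Of its 3 probes, the RefSeq transcript probe read 4.59 and 3.87, a clone probe 3.39 and 3.19, and the other clone probe, in the near-constant band, 0.13 and -0.18. Without that probe Ctnna3 stood at 3.76 ± 0.33 (13.6-fold; limma adjusted p = 0.00305). All 3 probes were lower on heart-2 than on heart-1, whereas Dsp as a gene was higher on heart-2. The near-constant band itself lies lower on heart-2, so any probe in it reads lower there. The drop of the clone probe outside the band was about the offset between the array medians (0.07 on heart-1 and -0.14 on heart-2). Only the RefSeq transcript probe fell by clearly more.

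Pkp4, known as p0071, is an armadillo protein related to p120-catenin that is found at adherens junctions and desmosomes. It had log2 ratios of 2.44 and 2.45, a mean of 2.45 ± 0.01 (SD, n = 2; 5.45-fold; limma adjusted p = 0.00136). Both probes were higher in heart, at means of 1.72 and 3.17. In the values as deposited, the 2 hearts lay closer together on Pkp4 than on any other of the 10 genes. That depended on the scaling. With each array centred on its median they were closest on Dsg2 (SD 0.008, against 0.149 for Pkp4). With quantile normalization they were closest on Pkp2 (SD 0.009, against 0.023 for Pkp4).

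Ctnnb1 encodes beta-catenin, which joins N-cadherin to alpha-catenin and is also the transcriptional coactivator of Wnt signalling. It was the member that did not pass, with log2 ratios of 0.03 and 0.11, a mean of 0.07 ± 0.06 (SD, n = 2; 1.05-fold; limma adjusted p = 0.289). That mean was made of probes that disagreed in sign. A RefSeq transcript probe read -0.83 on both arrays, another read 0.04 and 0.10, and a clone probe 0.87 and 1.05. Tested singly over all 41174 probes, the first was lower in heart (limma adjusted p = 0.00459), the second did not pass (adjusted p = 0.291) and the third was higher (adjusted p = 0.00858). With the RefSeq transcript probes alone, a choice made after seeing the data, Ctnnb1 was lower in heart at -0.38 ± 0.02 (limma adjusted p = 0.00817), so its direction was not settled by these arrays.

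Over all 29 probes, 24 were higher in heart, 1 was lower and 4 did not pass, where 31.2% of all probes were higher and 35.3% lower. At least 2-fold higher on both arrays were 22, against 18.1% of all probes. Probes of a gene share its RNA and are not replicates. The lower probe belongs to Ctnnb1, and those that did not pass belong to Dsg2, Ctnna3 and Ctnnb1.

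Sorted by mean log2 ratio, the order was Dsp, Dsc2, Pkp2, Dsg2, Cdh2, Ctnna3, Pkp4, Ctnna1, Jup and Ctnnb1. This is the order with all probes averaged. Neighbours were apart, with both arrays of the upper gene above both arrays of the lower, in 6 of 9 pairs. The exceptions were Pkp2 and Dsg2, which differed by 0.03, Cdh2 and Ctnna3, which differed by 0.04, and Ctnna3 and Pkp4, which differed by 0.05. By distance over the 2 arrays the most alike members were Cdh2 and Pkp4 (0.14) and then Pkp2 and Dsg2 (0.17), and Jup lay nearest to Ctnnb1 (0.63). With 2 arrays of 1 comparison this is nearness of ratios and no pattern across conditions. The 5 desmosomal members (Dsp, Jup, Pkp2, Dsg2, Dsc2) had a median of 3.57 and the other 5 a median of 2.45, and the ranges, 0.51 to 6.26 and 0.07 to 2.54, overlapped. Jup and Ctnnb1, the related armadillo proteins of both junctions, differed by 0.49 on heart-1 and 0.38 on heart-2.

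**Figure D3:**
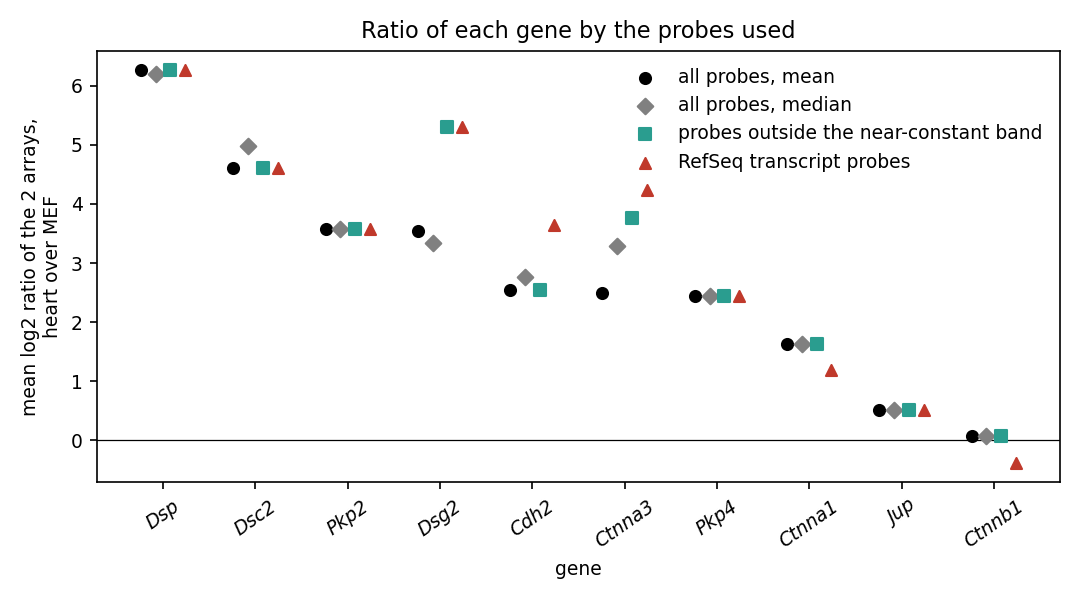
Mean log2 ratio of the 2 arrays for each gene when its probes were averaged, summarised by their median, restricted to probes outside the near-constant band, or restricted to RefSeq transcript probes. Dsg2 moves from 3.54 to 5.30 and Ctnna3 from 2.50 to 4.23 with RefSeq transcript probes, and Ctnnb1 crosses 0 to -0.38.

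The hearts gave similar values for most of the 10 genes, and 7 differed by less than 0.11 between the arrays. Heart-2 was higher for 5 genes and heart-1 for 5. Besides Dsp and Ctnna3, only Dsg2 differed by more, at 3.63 on heart-1 and 3.44 on heart-2. These comparisons use the values as deposited and depend on the offset between the arrays. The medians over all probes were 0.07 on heart-1 and -0.14 on heart-2. With each array centred on its median, the SD of Dsg2 fell from 0.13 to 0.01 and that of Dsp rose from 0.35 to 0.49. Desmosomes are also abundant in epithelia and in the mesothelium that covers the heart. Of 14 epithelial and mesothelial markers 6 were higher in heart, 4 lower and 4 did not pass. By comparison, 33.8% of all genes were higher and 39.3% lower. The markers had a median of 0.48 on heart-1 and 1.03 on heart-2. Their ratios ran from -1.08 to 2.12 on heart-1 and from -0.87 to 3.20 on heart-2. The lower markers were Krt19, Krt18, Cldn7 and Krt5, at means of -0.89, -0.69, -0.21 and -0.20. Upk3b, a uroplakin of mesothelium, was at 1.97 and 3.20, Msln, mesothelin, at 2.12 and 2.04, Wt1, a transcription factor of the epicardium, at 1.28 and 1.34, and Lrrn4 at 1.28 and 2.58, where Lrrn4 did not pass (limma adjusted p = 0.0515). On 4 of the 14 markers heart-2 exceeded heart-1 by more than 0.5, and on 0 it was the reverse. The other 10 differed by at most 0.12. For Dsp the excess of heart-2 was 0.50, and 8.29% of all genes differed by as much or more in either direction. For the other desmosomal members heart-2 minus heart-1 was -0.19 (Dsg2), -0.10 (Dsc2), -0.03 (Jup) and 0.03 (Pkp2). The part of epithelial and mesothelial cells in the desmosomal ratios was not tested.

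Of 14 other desmosome genes, best known from skin and other epithelia, 13 were measured, and 6 were higher in heart, 4 lower and 3 did not pass, with a median of 0.01. Over all genes 33.8% were higher and 39.3% lower, with a median of -0.04. Perp, a tetraspan membrane protein of desmosomes, was at 4.55 and 4.57, a mean of 4.56 ± 0.01 (23.6-fold), just below Dsc2. Ppl, periplakin, and Evpl, envoplakin, plakin relatives of desmoplakin, were higher at 2.14 ± 0.13 and 1.10 ± 0.03. The probe means were 1.06 and 3.22 for Ppl and 0.36 and 1.85 for Evpl. Evpl did not pass against a 2-fold difference (treat adjusted p = 0.136). Lower were Cdsn, corneodesmosin of the outer skin, at -3.36 ± 0.04, Kazn, kazrin, at -1.77 ± 0.04, and Pkp1, plakophilin-1, at -1.01 ± 0.05 (limma adjusted p of these 3 at most 0.00296). The probe means of Kazn ran from -3.33 to -0.15, and Cdsn and Pkp1 had a single probe each. Pkp1 did not pass against a 2-fold difference. Pkp3, plakophilin-3, read 0.52 and 1.00, and its call (limma adjusted p = 0.0470) was lost with a robust variance prior (adjusted p = 0.0544). Within the plakophilins the ratio was therefore highest for Pkp2, and Pkp1 lay on the fibroblast side.

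Of 30 other adherens junction and intercalated disc genes 28 were measured, with 15 higher in heart, 11 lower and 2 not passing, and a median of 0.42. The share of lower genes was that of all genes (39.3%), and 33.8% of all genes were higher. Xirp2 and Xirp1, actin-binding Xin proteins of the disc, were at 7.26 ± 0.04 and 4.38 ± 0.03, and Nrap, which links actin to adherens junctions in muscle, at 5.13 ± 0.06. Ldb3, a Z-disc protein, was at 5.70 ± 0.02, and Sorbs2, an adaptor of Z-disc and intercalated disc, at 4.77 ± 0.31. Des, desmin, the filament protein that desmoplakin anchors, was at 3.95 ± 0.02, and Gja1, connexin 43 of the gap junctions, at 2.58 ± 0.02, close to Cdh2. All 7 of these passed limma's test, at an adjusted p of at most 0.00214.

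**Figure D4:**
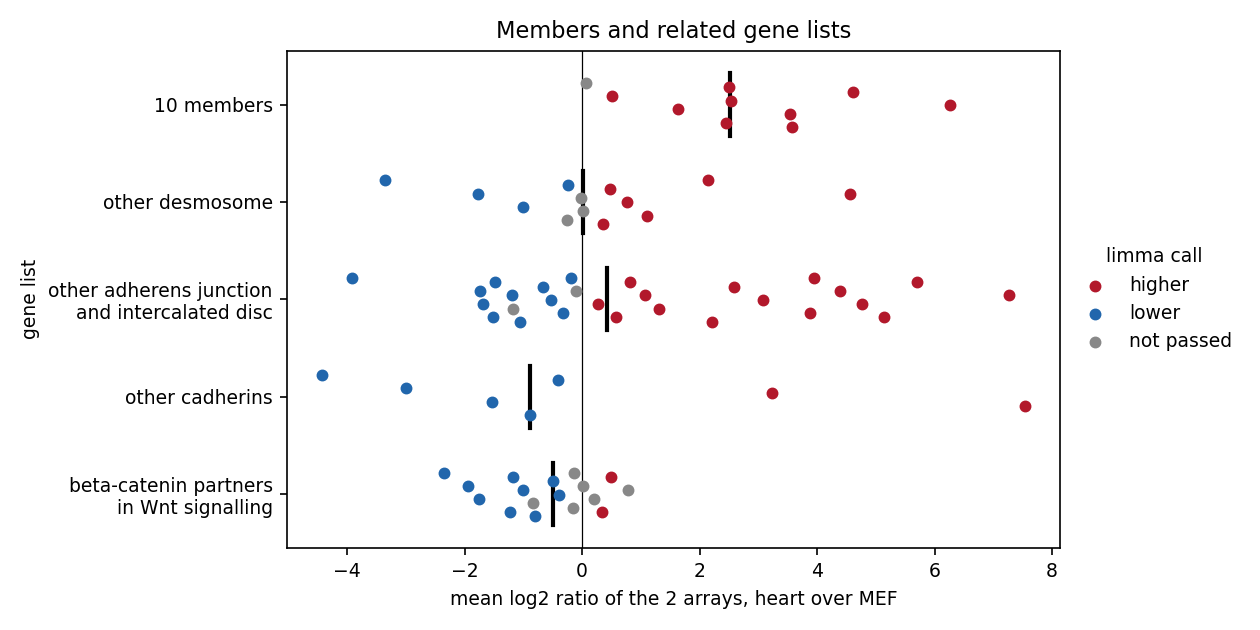
Mean log2 ratio of heart over MEF for the 10 members and for 4 lists of related genes, 1 point per gene; colours give the limma call and the black bar the median of the list. The members lie between 0.07 and 6.26, while each of the other lists holds genes on both sides of 0.

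The lower genes of that list included further catenins and an actin linker. Vcl, vinculin, which strengthens the link of alpha-catenin to actin and also sits in focal adhesions, was lower in heart at -1.49 ± 0.03 (2.81-fold lower; limma adjusted p = 0.00173). Ctnna2, the alpha-catenin known from neurons, was at -1.74 ± 0.12, with probe means between -4.70 and 0.45, and Ctnnd2, delta-catenin, also known from neurons, at -3.91 ± 0.21. Tmem43, a nuclear membrane protein whose human gene is linked to arrhythmogenic cardiomyopathy, was at -1.69 ± 0.07. Ctnnd1, p120-catenin, which stabilises cadherins at the membrane, was at -0.66 ± 0.17 (limma adjusted p = 0.0188), but its 3 probes ran from -2.39 to 0.41 and their median was 0.0051, which did not pass (adjusted p = 0.966). Of the alpha-catenins, Ctnna1 and Ctnna3 were thus higher in heart and Ctnna2 was lower by its mean. The probes of Ctnna2 disagreed in sign, and with their median it stood at -0.97.

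Of 7 other cadherins 2 were higher in heart and 5 lower, with a median of -0.89, against 33.8% and 39.3% of all genes. Cdh5, the cadherin of endothelium, was at 7.53 ± 0.02 and Cdh13 at 3.23 ± 0.55, from 2.84 on heart-1 and 3.62 on heart-2. Cdh13 lacks the catenin-binding tail that defines classical cadherins, and of the 6 genes without it 1 was higher and 5 lower. Lower were Cdh11, the cadherin of mesenchymal cells, at -4.42 ± 0.04, Cdh3, P-cadherin, at -3.00 ± 0.24, Cdh1, E-cadherin, at -1.53 ± 0.07, and Cdh15, M-cadherin, at -0.89 ± 0.09. All 7 passed limma's test, with the 4 lower genes named here at an adjusted p of at most 0.00522.

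Of 18 listed partners of beta-catenin in Wnt signalling 17 were measured, with 2 higher, 9 lower and 6 not passing, and a median of -0.50, where 33.8% of all genes were higher and 39.3% lower. At least 2-fold higher on both arrays were 0 of them and at least 2-fold lower were 5, against 18.1% and 18.5% of all genes. Pygo2 and Pygo1, nuclear cofactors of the beta-catenin complex, were at -2.36 ± 0.25 and -1.01 ± 0.02, and Bcl9l, which bridges Pygo proteins to beta-catenin, at -1.18 ± 0.10. Of the proteins that mark beta-catenin for destruction, Axin1, the scaffold, was at -1.76 ± 0.06, and the ubiquitin ligase subunits Fbxw11 and Btrc were at -1.94 ± 0.61 and -1.22 ± 0.04. The probe means of Fbxw11 were -3.59 and -0.30, and it did not pass against a 2-fold difference (treat adjusted p = 0.117) and was at -0.30 with RefSeq transcript probes alone. Bcl9l (treat adjusted p = 0.119) and Pygo1 did not pass against a 2-fold difference either, whereas Pygo2, Axin1 and Btrc did. The higher genes were Ctnnbip1, an inhibitor of beta-catenin binding to its transcription factors, at 0.50 ± 0.02, and the transcription factor Tcf7l2 at 0.33 ± 0.12, whose call (limma adjusted p = 0.0410) was lost when the arrays were centred (adjusted p = 0.0779). The probe means of Tcf7l2 ran from -0.45 to 0.94. With RefSeq transcript probes alone it stood at 0.16 and did not pass (limma adjusted p = 0.0553).

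The sequences around the annotated starts of the genes at the ends of the order are shown to set the highest ratio beside the 2 lowest. They run from 250 bases before to 50 bases after a start (RefSeq, GRCm38.p6), and capitals mark the CCAAT box (CCAAT) and the GC box (GGGCGG), each searched on both strands, where matches may touch.
Dsp, chr13:38151044-38151343, plus strand: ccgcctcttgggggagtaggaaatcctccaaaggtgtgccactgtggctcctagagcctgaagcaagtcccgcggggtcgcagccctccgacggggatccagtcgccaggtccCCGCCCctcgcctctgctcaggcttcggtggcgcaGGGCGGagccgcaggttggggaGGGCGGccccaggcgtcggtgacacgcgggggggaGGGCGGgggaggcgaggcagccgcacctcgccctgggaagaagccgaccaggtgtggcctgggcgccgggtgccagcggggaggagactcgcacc
Jup, chr11:100397741-100398040, minus strand: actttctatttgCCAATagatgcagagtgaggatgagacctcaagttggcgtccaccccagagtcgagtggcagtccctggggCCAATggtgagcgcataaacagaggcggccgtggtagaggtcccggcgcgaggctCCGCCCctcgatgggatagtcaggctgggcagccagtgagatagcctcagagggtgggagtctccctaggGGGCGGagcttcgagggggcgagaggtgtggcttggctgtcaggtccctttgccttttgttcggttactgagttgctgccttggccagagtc
Ctnnb1, chr9:120933150-120933449, plus strand, the first of its listed starts: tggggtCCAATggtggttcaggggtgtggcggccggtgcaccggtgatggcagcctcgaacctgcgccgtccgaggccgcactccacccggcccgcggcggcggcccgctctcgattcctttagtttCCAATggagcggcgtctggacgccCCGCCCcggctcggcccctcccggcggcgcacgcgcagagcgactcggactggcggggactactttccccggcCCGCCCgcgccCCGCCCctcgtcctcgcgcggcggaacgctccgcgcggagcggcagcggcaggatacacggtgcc
The Dsp sequence held 4 GC boxes and 0 CCAAT boxes, that of Jup 2 and 2, and that of Ctnnb1 3 and 2; the second listed start of Ctnnb1 held 3 and 0, with 51 CG dinucleotides. Of 32851 such sequences in the table, 35.7% held a GC box and 37.4% a CCAAT box. The printed sequences held 27, 14 and 46 CG dinucleotides, against a median of 7, so all lay above the median whatever the ratio of their gene. For Ctnna3 the table lists 3 starts, with 39, 7 and 2 CG dinucleotides. For neither Ctnnb1 nor Ctnna3 do the arrays tell which start was used. Start sequences were at hand for 5 members, and those of Pkp4, not printed here, held 27 and 34 CG dinucleotides. These matches are letters in a window and describe no binding.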

How the data were processed

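The authors deposited 1 value per probe and array, taken here to be a log2 ratio between channels. Images were read with Agilent Feature Extraction, per the submitters' processing notes. Its version, and how background, normalization and filters were handled, were not stated in these sources. The log base was inferred from the largest absolute value, 11.62. It is a ratio of 3150 on the log2 scale but 111441 as a natural log, above a 16-bit scanner's 65535. That bound holds for raw intensities, and the handling of background and normalization is unknown. The base, on which every fold rests, is therefore likely and not settled. Centring stays unknown (medians 0.07 on heart-1, -0.14 on heart-2), and direction was read from cardiac markers. Probes with 1 symbol (32664) were averaged per gene and array. Each gene's mean was tested against 0 with limma 3.58.1 (R 4.3.3; eBayes, prior SD 0.066 on 1.25 degrees of freedom); the 2 arrays leave 1 residual degree of freedom and their number limits the precision. The fit was tested on simulated data. The near-constant band joined bins of width 0.02 holding over 1.5 times their neighbours' median. Of 69 listed partner genes 65 were measured; the rest were not analysed here. Named genes were all members, up to 6 largest and up to 3 opposing genes per list, up to 4 markers per list and a few key genes. Members and lists were chosen with earlier results of these data known.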

Additional observations from a re-analysis of the deposited data

How the results depend on the processing

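The count of 9 members higher in heart was the same with centred arrays, quantile normalization, the median of probes, a robust variance prior, no probes in the near-constant band or RefSeq transcript probes only (added after seeing the data), and 8 with treat against 2-fold. Without the variance shared across genes it was 5, as Dsp, Jup, Dsg2 and Ctnna3 missed the threshold in that test on 1 degree of freedom. The count of lower members was 0 throughout except 1 with RefSeq transcript probes, Ctnnb1 at -0.38. With either array left out there was no test, and 8 members were at least 2-fold higher on the array that remained. The listed partner genes called were 54 of 65 (73.1% of all genes were called), against 27 without shared variance, 29 with treat and 34 to 39 at least 2-fold apart on the single array left by leaving out a replicate. For these other settings the share of all genes in either direction was not counted. With the median of its probes Ctnnd1 was at 0.0051 in place of -0.66; the cause was not tested. Neighbours in the order were apart in 6 of 9 pairs, and in 8 with the median of probes, without band probes or with RefSeq transcript probes, but those orders differ: Ctnna3 (3.29) passed Cdh2 (2.76) with the median, Dsg2 (5.30) passed Dsc2 without band probes and with RefSeq transcript probes, Ctnna3 (3.76 and 4.23) passed Pkp2 in both, and Cdh2 (3.64) did with RefSeq transcript probes. With centred arrays limma found an infinite prior, so those p-values rest on 1 SD of 0.27 for all genes. No paired analysis was possible because the arrays form a single group.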

Other observations

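Across the 32664 probes with 1 gene symbol, 17.6% of the 5734 listed under other cDNA clones lay in the near-constant band on both arrays, against 3.65% of the 26930 listed under a RefSeq transcript. Among the 10 genes these were 3 of 9 and 0 of 20.

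Axin2, a feedback inhibitor of Wnt signalling whose transcription beta-catenin activates, was looked up after its values were seen. It read -0.16 on heart-1 and 1.72 on heart-2 from a single probe and did not pass (limma adjusted p = 0.372). Epcam, an epithelial adhesion protein, read -0.01 and 1.24, and Cldn4, a claudin of epithelial tight junctions, -1.08 and 0.29; both were looked up in the same way and did not pass (limma adjusted p = 0.305 and 0.519).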
